A study of Mus musculus with 2 samples.

Results

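The genes described here encode the largest subunit of RNA polymerase II and factors that work with it during elongation, grouped as partners of Setd2. They are 10 transcription elongation genes, picked by name from the deposited gene table, which has 17817 genes in all: Polr2a for RNA polymerase II, Supt5h, Supt6h with its partner Iws1, the PAF complex genes Paf1, Ctr9, Leo1 and Cdc73, and the FACT genes Supt16h and Ssrp1. The rule lists the genes by name and contains no measured value, and all 10 were found on 1 row each. The table holds 1 RNA library from wild-type mouse embryonic stem cells and 1 from embryonic stem cells in which Setd2 was knocked out, both of 129SV/C57BL/6 strain at passages 10 to 12 and with no further treatment. Both were grown on feeder cells, passaged on gelatin to deplete the feeders and collected 2 days later. How Setd2 was disrupted, and whether each line is a single clone, the labels do not say.

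RNA polymerase II carries a long tail of repeated heptapeptides on its largest subunit, and kinases phosphorylate this tail as the polymerase leaves the promoter and moves through the gene. Setd2, the enzyme that trimethylates H3K36, binds the phosphorylated tail. Spt6 also travels on the elongating polymerase, and its partner Iws1 is known to help bring Setd2 to transcribed genes. The PAF complex connects the polymerase to histone H2B ubiquitination, and FACT takes nucleosomes apart ahead of the polymerase and helps restore them behind it. These genes are broadly expressed across cell types.

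None of the 10 genes was 2-fold apart between the libraries. The widest differences were a higher level of the PAF complex genes Ctr9 (1.35 times the wild-type level), Paf1 (1.29 times) and Leo1 (120.2% of wild type) in the knockout library, and a lower level of Polr2a (83.1% of wild type). Supt6h was 1.15 times the wild-type level, and the other 5 genes, Supt5h, Iws1, Cdc73, Supt16h and Ssrp1, stood between 92.6% and 106% of it. With 1 library per genotype there is no replicate, so no test was possible and every difference describes these libraries only.

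Levels are given as CPM, the reads over a gene per 1000000 reads over all genes, and intervals are exact binomial 95% intervals that cover counting error only. The libraries held 56129838 and 52041677 read equivalents, so 1 CPM stood for 56.1 and 52.0 of them. Setd2 itself was at 452 CPM in wild-type cells against 174 CPM in knockout cells, 38.5% of its wild-type value (interval 37.6 to 39.4%). All 10 stem cell markers were above 0 in both libraries, with a summed level of 4048 CPM in wild-type cells against 3566 CPM in knockout cells, and 8 of 10 were lower in the knockout library. Among them Zfp42 was at 283 and 68.1 CPM and Utf1 at 159 and 92.7 CPM, while Nanog was at 221 and 310 CPM. The 12 fibroblast markers, for feeder cells, summed to 208 and 168 CPM, of which Vim made up 95.3 and 81.7 CPM. Lower in the knockout library were 11 of 12, while Pdgfrb was higher, at 6.72 and 10.7 CPM. Lum was at 0.07 CPM in wild-type cells and at 0 in knockout cells. The 8 primitive endoderm markers summed to 355 and 237 CPM, of which Sparc made up 235 and 206 CPM, with 8 of 8 lower and none at 0. Of all genes that averaged 1 CPM or more, 43.6% were lower in the knockout library. The part of these markers' cells in the differences of the elongation genes was not tested, and in bulk RNA fewer cells of a type and less RNA per cell cannot be told apart.

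Promoter sequence is shown for 3 genes from the ends of the range of differences, Paf1 and Leo1, which were higher in the knockout library, and Polr2a, which was lower. RefSeq's promoter table (GRCm38.p6) held 9 promoters for 8 of the 10 genes, and none for Ctr9 and Iws1. Each line gives the 250 bases before the transcript start, 5′ to 3′ on the gene's strand, and capitals mark any of the searched motifs.
Paf1: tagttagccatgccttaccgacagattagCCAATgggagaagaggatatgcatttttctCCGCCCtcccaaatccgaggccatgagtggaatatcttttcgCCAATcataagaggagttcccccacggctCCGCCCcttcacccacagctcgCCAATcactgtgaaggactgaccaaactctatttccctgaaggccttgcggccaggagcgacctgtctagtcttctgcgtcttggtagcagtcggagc
Leo1: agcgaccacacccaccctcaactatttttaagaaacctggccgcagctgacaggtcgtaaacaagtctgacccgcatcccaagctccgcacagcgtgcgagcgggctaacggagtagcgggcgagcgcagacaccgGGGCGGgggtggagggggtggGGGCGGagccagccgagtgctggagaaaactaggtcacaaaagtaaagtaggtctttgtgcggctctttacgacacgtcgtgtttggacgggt
Polr2a: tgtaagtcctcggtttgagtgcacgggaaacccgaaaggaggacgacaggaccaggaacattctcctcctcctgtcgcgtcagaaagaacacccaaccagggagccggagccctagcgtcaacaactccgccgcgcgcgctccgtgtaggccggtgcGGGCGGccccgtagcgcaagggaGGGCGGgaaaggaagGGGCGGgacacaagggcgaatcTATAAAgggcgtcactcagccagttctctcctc
The Paf1 stretch is chr7:28392746-28392995 on the plus strand, that of Leo1 is chr9:75441274-75441523 on the plus strand, and that of Polr2a is chr11:69758634-69758883 on the minus strand. The motifs, searched on both strands, were the GC box GGGCGG, the CCAAT box CCAAT, the ETS motif CCGGAAG, the YY1 motif AAGATGG, the TATA box TATAAA and the E-box CACGTG. None of the marked matches in these 3 promoters overlap. Paf1 had 3 CCAAT boxes, which begin 221, 149 and 98 bases before the start, and 2 GC boxes. Leo1 had 2 GC boxes, and Polr2a had 3 GC boxes and a TATA box that begins 33 bases before the start. A GC box stood in 7 of the 9 member promoters against 33.0% of 32536 promoters in the table, a CCAAT box in 1 of 9 against 33.8%, and a TATA box in 1 of 9 against 12.3%. The YY1 motif was found in 2 of 9 (Supt5h and Supt6h) against 4.51% and the ETS motif and the E-box in 1 of 9 each (Supt16h) against 6.95% and 6.04%. The 3 promoters shown had the GC box in common, and no motif searched was shared by Paf1 and Leo1 alone. The background holds promoters of all genes, and shares among promoters of like GC content or of expressed genes were not computed. The matches describe the letters only, and no binding or promoter activity was measured.

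Over all 10 genes the median log2 fold (knockout over wild type, with 0.5 CPM added to each level) was 0.05, and the median over the 13523 genes that averaged 1 CPM or more was 0.05 as well. Beyond 2-fold lay 0 of 10 genes, against 3.87% of all compared genes. At least 1.2-fold higher were 3 of 10, against 26.5% of all genes, and at least 1.2-fold lower was 1 of 10, against 20.4%. Leo1, with a log2 fold of 0.26, stood at the edge of that threshold. With a trimmed mean of log ratios 2 of 10 were higher and 1 lower, against 21.2% and 24.4% of all genes. The 1.2-fold shares are not far from those of all genes. All 10 lie in the fifth of genes with the highest mean level (93.8 CPM or more), while the background holds all levels from 1 CPM. Shares among genes of like level were not computed, so how the set stands against such genes was not tested. The folds of the members are drawn against the distribution of all genes.

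**Figure D1:**
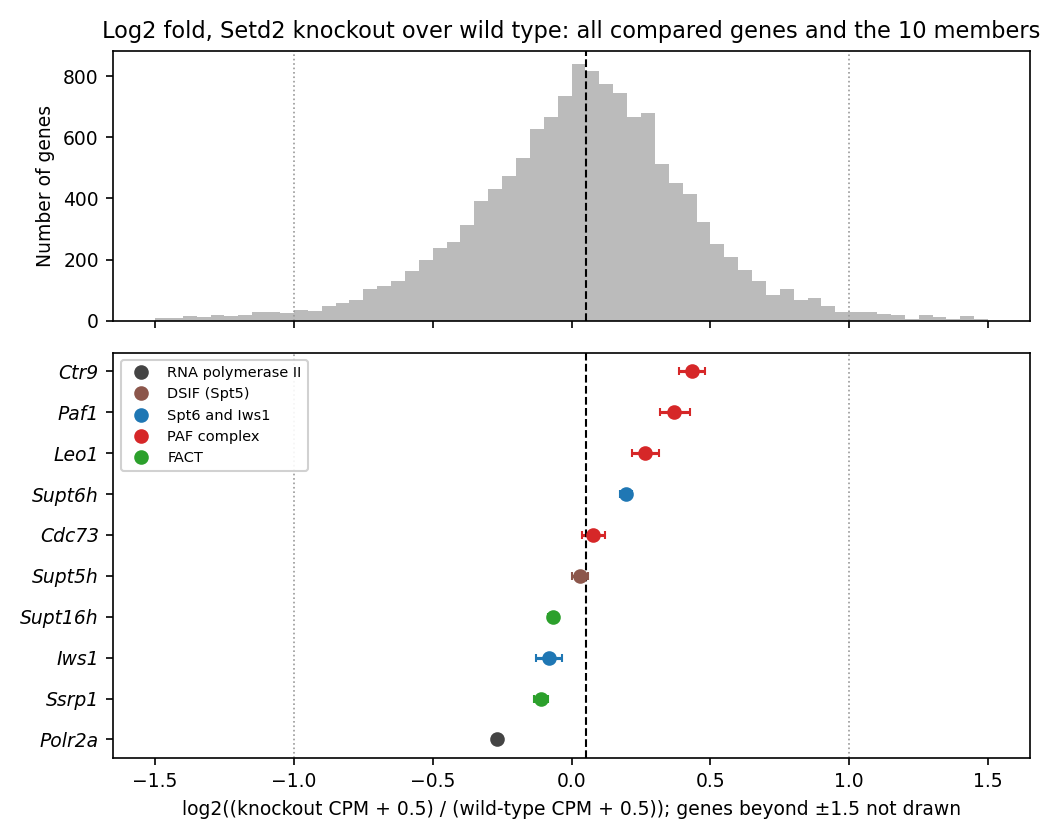
The upper panel counts all compared genes by log2 fold (knockout over wild type), and the lower panel places each of the 10 genes on the same axis with its 95% counting interval, coloured by complex. The dashed line is the median of all genes (0.05), the dotted lines mark 2-fold, and the genes run from Polr2a at -0.27 to Ctr9 at 0.43.

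Polr2a (gene number 20020, chromosome 11, 69547912 to 69571725, mm9, minus strand) encodes the largest subunit of RNA polymerase II, which holds the active site together with the second largest and carries the tail that Setd2 binds. It stood at 1157 CPM in wild-type cells against 961 CPM in knockout cells, from 64942 and 50032 read equivalents. The knockout level was 83.1% of its wild-type value (interval 82.1 to 84.1%), a log2 fold of -0.27. This was the lowest of the 10 folds, and 20.1% of all genes compared lay at or below it. Polr2b, the second largest subunit and not one of the 10, stood the other way, at 455 CPM in wild-type cells against 561 CPM in knockout cells, 1.23 times the wild-type level (interval 1.21 to 1.25). The ratio of Polr2b reads to Polr2a reads was 0.393 in wild-type cells against 0.583 in knockout cells. This was a 1.48-fold shift (interval 1.45 to 1.51, on the log scale) that no scaling between libraries can change. It is not free of base composition, as Polr2b was at 0.16 and Polr2a at -0.28 relative to genes of like GC content. The span of AC141469.5, on the same strand, covers 4330 of the 4667 exon bases of Polr2b, so the level of Polr2b itself is uncertain.

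Supt5h (gene number 20924, chromosome 7, 29099915 to 29123738, mm9) encodes Spt5, the large subunit of DSIF, which holds the polymerase at pause sites and, once phosphorylated, helps it elongate. It was at 363 CPM in wild-type cells against 371 CPM in knockout cells, 1.02 times the wild-type level (interval 1.00 to 1.04). The difference was about as small as counting error, and its log2 fold of 0.03 turned to -0.03 when the libraries were scaled by a trimmed mean of log ratios. Supt4h1, the small subunit of DSIF, was at 7.36 and 7.54 CPM. For Supt4h1 66.5% of 76-base windows of its exons also had another place in the genome, so its own level is uncertain.

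Supt6h (gene number 20926, chromosome 11, 78020251 to 78059205, mm9) encodes Spt6, a histone chaperone that rides on the elongating polymerase. It was at 607 CPM in wild-type cells against 696 CPM in knockout cells, 1.15 times the wild-type level (interval 1.13 to 1.16) and a log2 fold of 0.20. Iws1 (gene number 73473, chromosome 18, 32227418 to 32256962, mm9) encodes the Spt6 partner that links it to Setd2. Iws1 was at 140 CPM in wild-type cells against 132 CPM in knockout cells, 94.6% of its wild-type value (interval 91.5 to 97.7%) and a log2 fold of -0.08. The partners thus stood on opposite sides of equality, and the ratio of Supt6h to Iws1 reads went from 4.35 to 5.27, a 1.21-fold shift (interval 1.17 to 1.26). Supt6h shares 242 exon bases with Sdf2 on the opposite strand, whose level was 24.0 and 23.3 CPM; whether counting used strand is not stated in the labels or headers.

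Ctr9, Paf1 and Leo1 of the PAF complex had the highest folds of the 10. Ctr9 (gene number 22083, chromosome 7, 118172465 to 118199891, mm9) encodes the scaffold subunit, and was at 123 CPM in wild-type cells against 166 CPM in knockout cells. Its knockout level was 1.35 times the wild-type level (interval 1.31 to 1.39), with a log2 fold of 0.43, higher than or equal to that of 86.3% of all genes compared. Paf1 (gene number 54624, chromosome 7, 29178015 to 29184402, mm9), which pairs with Leo1 in the complex, was at 87.6 and 113 CPM. Its ratio was 1.29 (interval 1.25 to 1.34), with a log2 fold of 0.37. Leo1 (gene number 235497, chromosome 9, 75289331 to 75314239, mm9) was at 115 and 139 CPM, 120.2% of wild type (interval 116 to 124%). Paf1, Ctr9 and Leo1 stayed above 0 under every scaling tried, with lowest log2 folds of 0.31, 0.37 and 0.20.

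Cdc73 (gene number 214498, chromosome 1, 145454629 to 145549814, mm9), which encodes the tumour suppressor parafibromin, stood apart from these partners. It was at 177 CPM in wild-type cells against 187 CPM in knockout cells, 1.06 times the wild-type level (interval 1.03 to 1.09). Reads of Ctr9 relative to Cdc73 went from 0.694 to 0.888, a 1.28-fold shift (interval 1.23 to 1.33), those of Paf1 shifted 1.23-fold (interval 1.17 to 1.28) and those of Leo1 1.14-fold (interval 1.09 to 1.19). Rtf1 and Wdr61, which also join the PAF complex and are not among the 10, were at 126 and 152 CPM and at 74.9 and 90.9 CPM. Each of them was 1.21 times its wild-type level, close to Leo1. Wdr61 shares 1581 of its 4678 exon bases with Dnaja4 on the opposite strand, and whether counting used strand is not stated. Of these 6 PAF complex genes, 6 were above 0, against 56.4% of all genes compared, and the median log2 fold was 0.28. At least 1.2-fold higher were 5 of 6, against 26.5% of all genes, but Leo1, Rtf1 and Wdr61 lay just past that line. The count was 2 of 6 under each of the 3 other scalings, without chromosomes 8 and Y and relative to genes of like GC content. The share of all genes in these settings ran from 20.7% (like GC content) to 25.6% (without chromosomes 8 and Y). Relative to genes of like GC content 5 of 6 were above 0, against 6392 of 12785 among all genes. These 6 PAF complex genes were grouped with their values known, and the grouping adds no test.

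FACT differed little. Supt16h (gene number 114741, chromosome 14, 52780094 to 52816914, mm9) encodes its large, histone-binding subunit, and was at 946 CPM in wild-type cells against 903 CPM in knockout cells, 95.4% of its wild-type value (interval 94.3 to 96.6%). Ssrp1 (gene number 20833, chromosome 2, 84877358 to 84887268, mm9) encodes the partner with a DNA-binding HMG box. It was at 461 and 427 CPM, 92.6% of its wild-type value (interval 91.0 to 94.3%). Both FACT genes were slightly lower, and their ratio moved only from 2.05 to 2.12, a 1.03-fold shift (interval 1.01 to 1.05). The exons of Supt16h and Ssrp1 overlap genes on the opposite strand by 889 and 51 bases. These genes, Rpgrip1 (3.79 and 3.27 CPM) and P2rx3 (2.29 and 2.18 CPM), had levels far below theirs.

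Few of the sampled exon windows of the 10 genes had another place in the genome. Up to 200 windows of 76 bases were sampled per gene. None of them had another place for 8 of the genes, and the share was 2.0% for Paf1 and 4.5% for Iws1. The gene models of Cdc73 and Iws1 run past their deposited spans, so some of their windows may lie where reads were not counted. Placement of reads that cross exon junctions was not tested. None of the 10 lies on chromosome 8, whose 719 genes had a median log2 fold of -0.35. None lies on chromosome Y, whose 5 compared genes had a median of 6.20, far higher in the knockout library. The 2 libraries thus differed on these chromosomes too, and the cause was not tested.

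Base composition moved with the fold. Across 12785 genes with a gene model, the log2 fold fell with the GC content of the exons (Spearman's rho across genes -0.34, genes being no replicates), and the median went from 0.19 in the fifth of genes with the lowest GC content to -0.15 in the highest. Polr2a, with 52.1% GC, was at -0.28 relative to the median of the 500 genes nearest in GC content, so that its difference was as large by this measure. Ctr9 (46.3% GC) was at 0.31, Paf1 (51.7%) at 0.36, Leo1 (50.5%) at 0.23 and Supt6h (51.0%) at 0.15. Cdc73 is the poorest in GC of the 10, at 40.9%, and was at -0.12 relative to genes of like composition, below 0 where the plain fold was above it. Supt16h (45.2% GC) was at -0.21 by this measure against -0.07 in the plain fold. Iws1 was at -0.11, Ssrp1 at -0.10 and Supt5h at 0.08. Among the other PAF and polymerase genes, Rtf1 was at 0.17, Wdr61 at 0.18 and Polr2b at 0.16. The comparison by GC content was added after the data had been seen.

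**Figure D2:**
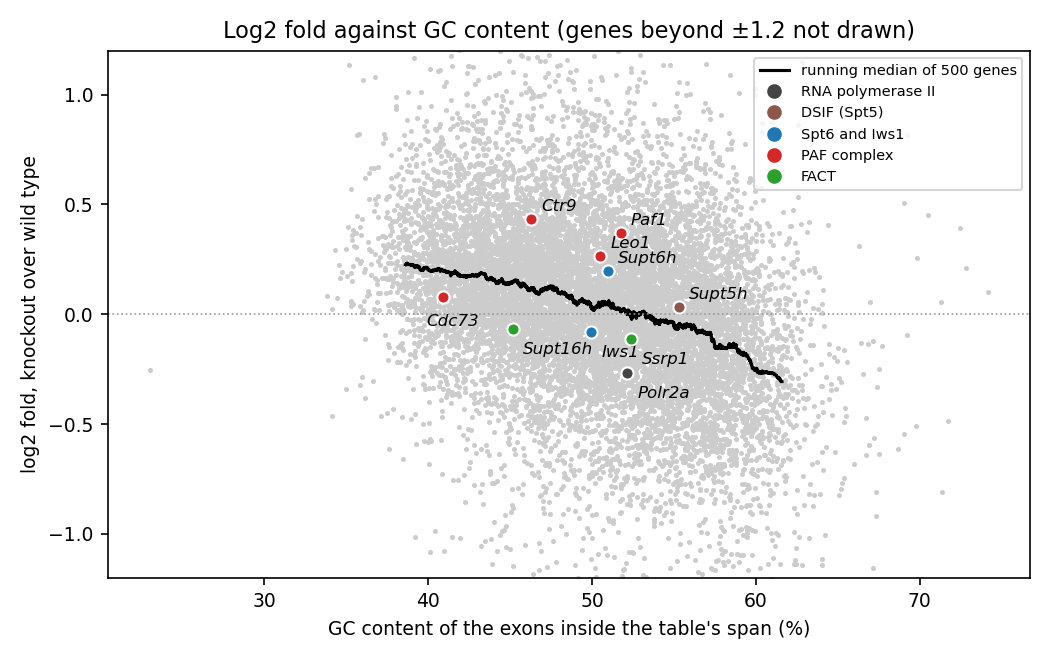
Each grey point is a compared gene, placed by the GC content of its exons and its log2 fold, the line is the running median of 500 genes, and the 10 genes are coloured by complex. Ctr9, Paf1 and Leo1 lie above the line, Polr2a at -0.27 lies furthest below it, and Cdc73 lies below it despite a positive fold.

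Levels of different genes can be compared only per length. With the length of all exons in the GENCODE gene model, Supt16h stood highest in the wild-type library at 211 CPM per kb, followed by Polr2a at 164, Ssrp1 at 122, Supt5h at 104 and Supt6h at 85.6 CPM per kb. Leo1 followed at 52.7, Paf1 at 25.5, Ctr9 at 18.8, Cdc73 at 14.8 and Iws1 at 14.5 CPM per kb, the last 2 being nearly equal. The order was the same in the knockout library, from Supt16h at 201 and Polr2a at 136 CPM per kb to Iws1 at 13.7 CPM per kb. The gene models of Cdc73 and Iws1 run 8702 and 7023 bases further at their 3′ ends than the span in the deposited table, so reads there may not have been counted. With the longest transcript cut to the table's span, the level per kb in the wild-type library was 66.1 CPM for Cdc73 and 54.3 CPM for Iws1, and Ctr9 was lowest of the 10 at 28.6 CPM. By both lengths Supt16h, Polr2a, Ssrp1, Supt5h and Supt6h were the 5 highest in each library, but places in the order depend on the length used. In the knockout library Supt6h passed Supt5h by the second length, at 112 against 106 CPM per kb, and the order of Iws1 and the PAF genes changed in both libraries.

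Within the PAF complex, Leo1 made up 47.1% of the summed level per kb of the 4 genes in wild-type cells against 46.1% in knockout cells by the first length, and 27.5% and 27.7% by the second. Cdc73 went from 13.2% to 11.4% by the first length and from 34.6% to 30.6% by the second. As the gene with the lowest fold of the 4, Cdc73 falls in share whatever the lengths. Supt16h made up 63.4% and 64.1% of FACT by the first length and 56.0% and 56.8% by the second. The Polr2a share of the summed Polr2a and Polr2b level per kb was 62.7% in wild-type cells against 53.1% in knockout cells. These shares have no replicate.

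**Figure D3:**
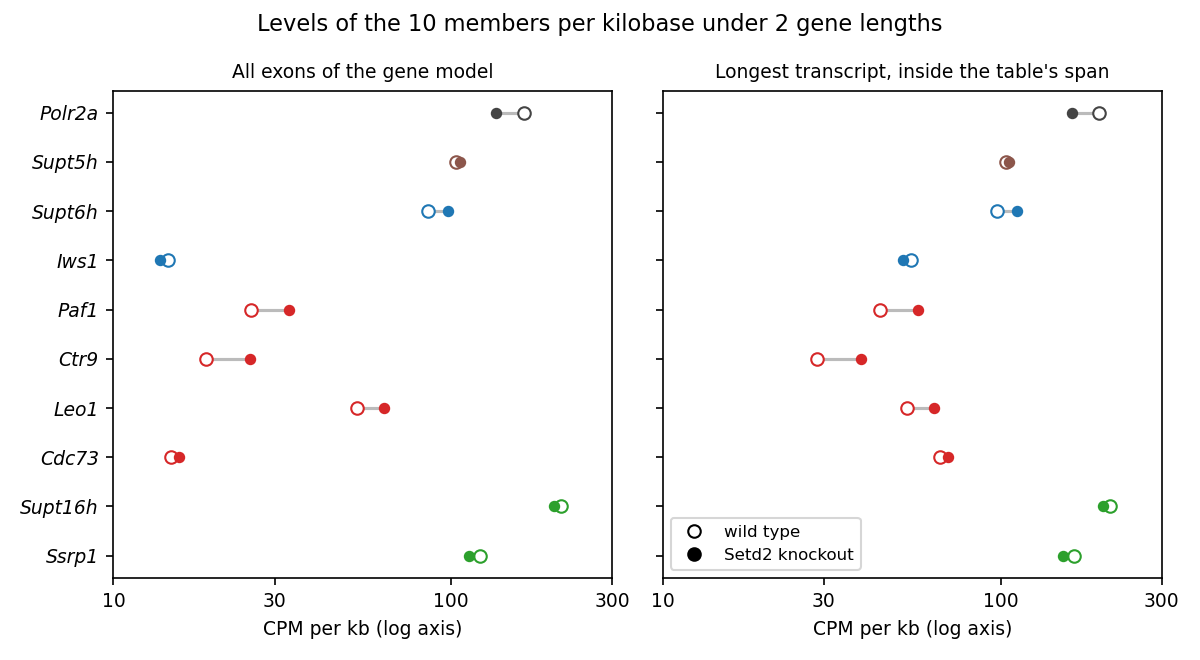
Levels of the 10 genes in CPM per kb on a log axis, open circles for the wild-type library and filled circles for the knockout library, by all exons of the gene model (left) and by the longest transcript inside the table's span (right). Supt16h is highest in both panels, and Cdc73 moves from 14.8 to 66.1 CPM per kb in the wild-type library between them.

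The rest of the transcription machinery was read from lists of 119 further genes, of which 115 averaged 1 CPM or more. Of these, 0 were 2-fold apart, against 3.87% of all genes compared. At least 1.5-fold higher were 3 (7.42% of all genes compared) and at least 1.5-fold lower were 2 (6.77%). Their median log2 fold was 0.02. Shares among genes of like level were not computed for these lists either. Polymerase II subunits other than Polr2a had a median of 0.16 over 12 genes. Above 0 were 10 of 12, against 56.4% of all genes compared. The median was 0.11 relative to genes of like GC content. For Polr2k 62.5% of windows were shared with other places and for Polr2l 22.0%, so their levels are uncertain. The highest plain fold was that of Polr2b at 0.30, and the lowest that of Polr2c at -0.31, which lies on chromosome 8. Polr2a therefore stood below 11 of the other 12 listed subunits. The polymerase II row Gcom1 was at 2.07 and 2.65 CPM, too low to place closely (ratio 1.28, interval 0.995 to 1.66).

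The pausing complex NELF was near equality. Its 4 genes had a median log2 fold of 0.01, from Whsc2 (the NELF-A gene) at -0.19 to Th1l (the NELF-C/D gene) at 0.17, with Rdbp (the NELF-E gene) at 0.08. Kinases of the polymerase tail and their partners had a median of 0.13 over 13 genes, which was -0.0050 relative to genes of like GC content. Cdk12, a kinase that phosphorylates the tail during elongation, was at 200 CPM in wild-type cells against 125 CPM in knockout cells, 62.6% of its wild-type value (interval 60.7 to 64.5%). Its cyclin gene Ccnk stood the other way, at 56.1 and 77.0 CPM, a ratio of 1.37 (interval 1.31 to 1.44), so reads of Ccnk relative to Cdk12 shifted 2.19-fold (interval 2.08 to 2.32). Mepce, which caps and stabilises the 7SK RNA that restrains P-TEFb, had a log2 fold of -0.54, and was at -0.30 relative to genes of like GC content.

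Genes of the super elongation complex were the most spread. Of 9 genes, 4 were above 0 and 5 below, against 56.4% and 43.6% of all genes compared. Their median of -0.05 turned to 0.05 with a floor of 5 CPM and to 0.10 relative to genes of like GC content. Mllt3, a chromatin reader of the complex, was at 18.4 and 30.6 CPM, 1.66 times the wild-type level (interval 1.54 to 1.80). The elongation factor genes Ell3 and Ell2 were 1.58 and 1.48 times their wild-type levels. Ell3 shares 1436 of its 2190 exon bases with Serinc4 on the same strand, so its own level is uncertain. Elongin and TFIIS genes had a median of -0.01 over 7 genes, with Tcea1 at 0.30, Tcea3 at -0.27 and Tcea2 at -0.20; for Tcea1 85.5% of windows were shared, so its level is uncertain.

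Histone ubiquitin and H3K79 genes, which act with the PAF complex, had a median of 0.05 over 7 genes. The H2B deubiquitinase gene Usp22 was at 0.36, the ubiquitin-conjugating enzyme gene Ube2b at -0.35 and the H3K79 methyltransferase gene Dot1l at -0.33. Other histone chaperones had a median of -0.07 over 12 genes, with Ubn1 of the HIRA complex at 0.36, Asf1b at -0.32 and Cabin1 at -0.28; Asf1b lies on chromosome 8. Phosphatases and readers of the polymerase tail had a median of 0.01 over 9 genes. Among them Rprd1a was at 0.65, with 64.0% of its windows shared with other places, the phosphatase gene Ctdsp1 at -0.40 and Ctdspl at 0.36.

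**Figure D4:**
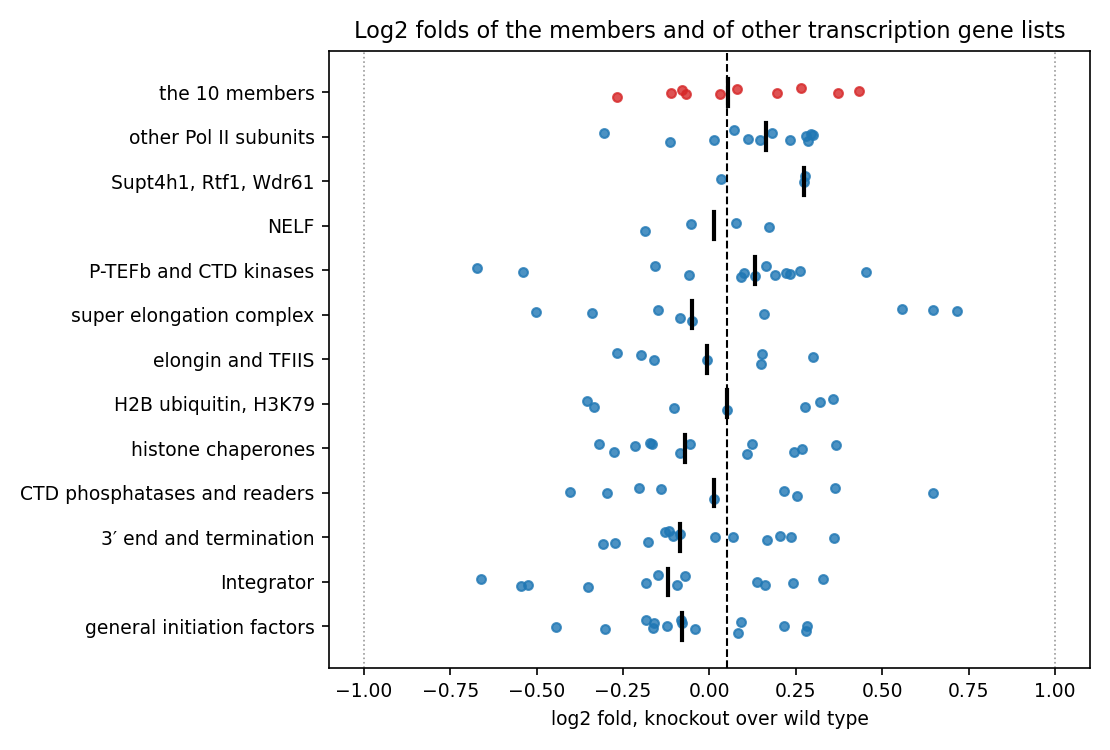
Each point is the log2 fold of a compared gene, by list, with a bar at the list's median; the dashed line is the median of all genes (0.05) and the dotted lines mark 2-fold. The 10 genes (top row) run from -0.27 to 0.43, and no gene of any list reaches 2-fold, against 3.87% of all genes.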

How the data were processed

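RNA from 1 wild-type and 1 Setd2 knockout library was measured by sequencing. CASAVA 1.6.0, TopHat 1.0.13 and mm9 are named, with no role stated, per the submitters' processing notes. The deposited values carry the word RPKM per the file headers, but were taken as log2(x + 1) with x counting sequenced bases in units of 76 (read equivalents), unscaled. Of the values of x above 0 and under 200, 85.9% and 85.7% were whole bases within 0.05. No source used here says how reads were counted.

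Each value was turned back into x and scaled to a library total of 1000000 (CPM). The row with the highest mean stood for a repeated symbol. Folds used a pseudocount of 0.5 CPM and a floor of 1 CPM on the mean of both libraries, which all 10 members passed. Level ratios have exact conditional binomial intervals on rounded read equivalents, and shifts of 1 gene against another have intervals from the log odds ratio. PCR copies were not marked, so intervals cover counting error only. Lengths and GC content came from the GENCODE annotation of NCBIM37, the assembly of mm9, where 94.6% of genes had a model and 0 rows ended beyond their chromosome. GC content was taken inside the span of the table. Up to 200 windows of 76 bases per gene were aligned with minimap2 2.31, counting other places with at most 2 mismatches. The folds and intervals were tried on simulated counts at the depths of these libraries, drawn with counting error only. The simulated counts hold no variation between cell lines and no trend with GC content. They check the calculation and not how well the intervals cover real differences.

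From each other list the 3 largest absolute folds and any gene past 2-fold were named, except 1 gene that is not reported here. Ratios within complexes, and Rtf1 and Wdr61, were named outside that rule to describe a complex. With 2 libraries each gene has 1 difference, so no genes of similar pattern were named. Members and lists were chosen with earlier results of these data known. Alternatives were other pseudocounts, floors, thresholds, scalings and lengths, summed rows, leaving out chromosomes 8 and Y, and a comparison by GC content. Of the 119 other genes, 3 symbols (Supt4h2, Hexim2 and Scaf4) matched no row, and Wdr33 was under 1 CPM.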

Additional observations from a re-analysis of the deposited data

How the results depend on the processing

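No paired analysis was possible because only 1 library stands for a genotype, which also means that none could be left out. The count of 0 members at least 2-fold apart held at every pseudocount (0.1 and 1 CPM), floor (5 CPM or none) and scaling tried. The count was also 0 at thresholds of 1.5-fold and 3-fold, without chromosomes 8 and Y and relative to genes of like GC content. At 3-fold it follows from the 2-fold count. With member folds from -0.27 to 0.43, the pseudocounts, floors and scalings had little room to change the count. The members' median log2 fold was 0.0039 with the median log2 ratio set to 0, -0.0064 with a trimmed mean of log ratios and -0.0099 relative to genes of like GC content. For the other listed genes these medians were -0.030, -0.039 and -0.050, and 5 of them passed 1.5-fold. With the longest transcript cut to the table's span, 5 members kept their place in the order of levels per kb among wild-type levels, and 3 among knockout levels; with the uncut longest transcript 10 and 6 did, and Ssrp1 (153 CPM per kb) passed Polr2a (143) in the knockout library. The largest change of a share was then 4.28 points for Supt6h and Iws1, against 2.22 by all exons, and 4.02 points in the PAF complex, against 1.86. The cut to the span and the comparison by GC content were chosen after seeing the data. The medians of NELF and of the tail phosphatases and readers ran from -0.05 to 0.08 and from -0.05 to 0.10, those of the elongin and TFIIS genes from -0.08 to 0.07, those of the histone ubiquitin genes from -0.0100 to 0.11 and those of the super elongation complex from -0.11 to 0.10, so their sign was not stable. Over all settings Polr2a, Iws1, Supt16h and Ssrp1 stayed below 0 and Supt6h, Paf1, Ctr9 and Leo1 above 0, while Supt5h ran from -0.03 to 0.08 and Cdc73 from -0.12 to 0.08. Depth was no limit for the members, which had at least 4920 read equivalents in each library; the number of libraries was.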

Other observations

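Lists for the start and end of transcription had medians below 0. Of 12 Integrator genes, whose complex cleaves nascent RNA and ends transcription near promoters, 8 were below 0, against 43.6% of all genes compared. Their median log2 fold was -0.12, against 0.05 over all genes, and -0.27 relative to genes of like GC content. Ints7 was at 192 CPM in wild-type cells against 121 CPM in knockout cells, 63.2% of its wild-type value (counting interval 61.2 to 65.2%). Ints5 was at 68.4% and Ints1 at 69.5%; 42.0% of the windows of Ints5 were shared with other places, and Ints1 has 61.2% GC and was at -0.25 relative to genes of like GC content. Ints7 was at -0.70 by that measure. General initiation factors had a median of -0.08 over 14 genes. At least 1.2-fold higher were 2 of 14, against 26.5% of all genes, and 2 were at least 1.2-fold lower, against 20.4%. Gtf2e2 was at -0.44, Gtf2e1 at -0.30 and Gtf2h1 at 0.28, and Gtf2e2 lies on chromosome 8. Both TFIIE genes, Gtf2e1 and Gtf2e2, were thus lower in the knockout library. Genes for 3′ end formation and termination had a median of -0.08 over 13 genes. Of these, 6 were above 0 and 7 below, against 56.4% and 43.6% of all genes compared. Fip1l1, of the polyadenylation machinery, was at 0.36 and Cpsf4 at -0.27. No gene of these lists reached 2-fold, against 3.87% of all genes compared, and none of these differences has a replicate.

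Genes around the members were read as well. Paf1 and Supt5h lie close together on chromosome 7, and the 60 genes within 1 Mb of Paf1 had a median log2 fold of -0.11, against 0.37 for Paf1 itself. The 11 genes within that distance of Ctr9 had a median of 0.09, against 0.43 for Ctr9. The 13 genes around Leo1 had a median of 0.29, against 0.26 for Leo1, and the 81 genes around Polr2a a median of -0.12, against -0.27 for Polr2a. Around Cdc73 the 6 genes had a median of 0.29, against 0.08 for Cdc73. Paf1 and Ctr9 thus stood above the median of their neighbours, Leo1 was level with it, and Cdc73 and Polr2a stood below it.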
